A study of Rattus norvegicus with 138 samples.

Results

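Volumetric muscle loss (VML) was made in the left tibialis anterior (TA) muscle of adult male inbred Lewis rats by removing a plug of tissue with a biopsy punch, and the whole muscle was profiled by RNA sequencing 14 days post injury (DPI). The muscles described here were 12 of the 24 muscles of that day and 8.7% of the samples in the series. They were taken as all labelled day 14 muscles of rats that were not run, with 8 on the injured side and 4 on the contralateral, uninjured side. Of the injured muscles, 4 were non-repaired (rats TS5.129, TS5.133, TS5.137 and TS5.141) and 4 had received a minced graft (MMG; rats TS5.131, TS5.135, TS5.139 and TS5.143), in which minced pieces of muscle were placed in the defect. The contralateral muscles came from rats TS5.129 and TS5.133 of the non-repaired arm and rats TS5.131 and TS5.135 of the graft arm, so 4 of the 8 rats gave both muscles. Every rat in this comparison had been operated on, the contralateral muscles are not muscles of unoperated animals, and the side of the body and the injury cannot be told apart. The repair label entered the fit as a covariate, so that a single injury effect was estimated over both arms, and the arms are compared further on. All 12 libraries passed the limit of 7000 symbols above 1 TPM, a share of all transcripts corrected for their length, and each muscle was 1 library.

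In skeletal muscle, injury sets off a sequence in which leukocytes clear debris, satellite cells divide and fuse into new fibers, and fibroblasts and fibroadipogenic progenitors lay down collagen matrix. New fibers pass through embryonic and neonatal programs of contractile genes before the adult ones. In adult muscle the nerve holds acetylcholine receptors at the neuromuscular junction, and fibers that lose the nerve, or have not yet met one, switch on fetal receptor subunits, Ncam1 and the transcription factor Myog along their length. In VML the tissue that would guide this repair is removed, and fibrosis follows.

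The 12 muscles separated by side. Across the 10507 tested genes, Pearson's r of log2(TPM + 1) ran from 0.983 to 0.994 over the 28 pairs of injured muscles, from 0.992 to 0.993 over the 6 contralateral pairs, and from 0.892 to 0.95 between the sides. The 50 most abundant genes took 53.7 to 56.6% of all TPM in the contralateral muscles but 39.8 to 48.3% in the injured ones, and 8920 to 9073 symbols exceeded 1 TPM in the former against 10145 to 10598 in the latter. The summed TPM of 11 fiber markers was 156400 to 202300 in injured and 222600 to 232200 in contralateral muscles, that of 7 fibroblast markers 4499 to 8462 against 369 to 667, and that of 7 macrophage markers 565 to 1003 against 79.5 to 106.9. In such whole-muscle RNA, fewer cells of a type and less RNA per cell cannot be told apart. Since TPM are shares of a whole, a difference in make-up shifts all genes. The median log2 fold change of all tested genes was 0.57 on the TPM scale and -0.0066 after median-ratio size factors, which ran from 1.04 to 1.37 in injured and from 0.678 to 0.752 in contralateral muscles. Counts are therefore given on both scales. The injured graft muscle of rat TS5.135 stood apart from the other injured muscles, with the highest median of 31 of the 44 gene lists examined, and the injured non-repaired muscles of rats TS5.129 and TS5.133 had the lowest median of 19 and 11 lists. List counts on the TPM scale were repeated without each of the 12 muscles in turn, and those that moved by more than 1.5 times are named beside the list.

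Most calls were higher in injured muscle, and the lower calls depended on the scale. With limma on log2(TPM + 1), 2692 genes were called (Benjamini-Hochberg adjusted p under 0.05 and a log2 fold change over 1 in size), of which 2653 were higher in injured muscle (25.2% of tested genes) and 39 lower (0.371%). After size factors 1242 were higher (11.8%) and 549 lower (5.23%), so the share of calls that were higher went from 98.55% to 69.35%. All 1242 of those higher genes and all 39 lower genes carried the same call on both scales. The 8 injured and 4 contralateral muscles did not overlap for 7747 genes (73.7% of tested genes), among them 2595 of the 2653 higher and 32 of the 39 lower calls. Without the injured graft muscle of rat TS5.135, 2495 genes were higher and 36 lower. Testing required a group mean over 1 TPM on some side and arm, so genes near 0 contralaterally entered through the injured side, and with the mean over all 12 muscles as the filter 2673 genes were called. The gene lists overlap in part, and their counts below are to be read beside the shares of all tested genes given here. Fold changes below are on the log2(TPM + 1) scale, which understates the change of genes near 1 TPM. Each is an injured minus contralateral difference with its standard error (SE).

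The 12 genes with the largest rise included fiber, matrix and cell cycle genes. The largest rise on this scale was in Sln, which encodes sarcolipin, a small inhibitor of the calcium pump of the sarcoplasmic reticulum. Sln stood at 18.2, 20.1, 24.9 and 30.4 TPM in the contralateral muscles and at 2286 to 6147 TPM (median 3023) in the injured ones, a log2 fold change of 7.13 (SE 0.20, adjusted p = 6.26e-11). Its lowest injured value lay far above its highest contralateral value. Klk1, tissue kallikrein, a protease that releases kinins, went from 0.88 ± 0.509 TPM (SD, n = 4) to 225 ± 61 TPM (SD, n = 8), a log2 fold change of 6.91 (SE 0.16). Klk1 has close relatives in the rat genome, and how reads were shared among them could change its level. Ankrd1, a titin-bound repeat protein of stretched and damaged fibers, rose by 6.54 from 5.24 ± 1.06 TPM to 597 ± 184 TPM. Myh3, embryonic myosin heavy chain, rose by 5.76 from 1.58 ± 0.35 TPM to 152 ± 73.1 TPM. All 4 kept their call after size factors, at 6.46, 6.46, 5.92 and 5.25. The order rests on the scale: with a pseudocount of 0.1 TPM Sln rose by 7.18, Klk1 by 7.98 and Clrn1 by 8.64.

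Among the other genes of that group, Postn, Cthrc1, Aspn and Tnc encode matrix proteins that fibroblasts secrete. Postn, periostin, rose by 6.64 (SE 0.25), from 9.74 ± 3.36 TPM to 1106 ± 471 TPM. Cthrc1, a secreted protein of activated fibroblasts, rose by 6.53 (SE 0.24), Aspn, the proteoglycan asporin, by 6.08 and Tnc, tenascin C, by 5.34. Cdkn1a, which encodes the cyclin-dependent kinase inhibitor p21, rose by 6.07 (SE 0.17) from 4.41 ± 0.418 TPM to 376 ± 113.9 TPM, and its 4 contralateral values were 3.92, 4.23, 4.63 and 4.86 TPM. Scd, a desaturase that makes monounsaturated fatty acids, rose by 6.33 and Dlk1, an imprinted membrane protein of progenitor cells, by 5.8. Clrn1, clarin 1, known best from sensory hair cells, was listed at 0 in 3 contralateral muscles and at 0.12 TPM in the other, and reached 29.7 to 88.9 TPM (median 45.4) in the injured muscles. These genes were chosen among those whose sides do not overlap.

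**Figure D1:**
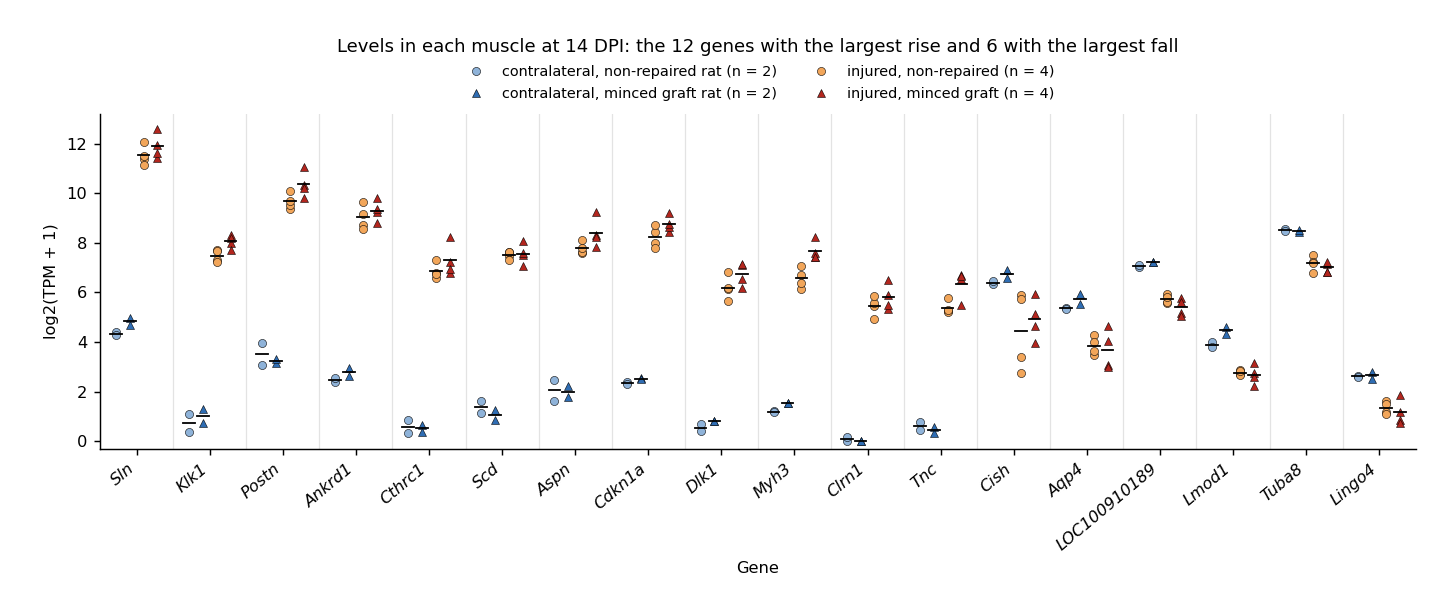
Levels of 18 genes in each of the 12 muscles at 14 DPI, on the log2(TPM + 1) scale (vertical axis), for the 12 genes with the largest rise and the first 6 of those with the largest fall whose groups did not overlap. Circles are non-repaired and triangles graft rats, blue is contralateral (n = 2 per arm), orange and red are injured (n = 4 per arm), and bars are means; Sln sits at 18.2 to 30.4 TPM contralaterally and at 2286 to 6147 TPM in injured muscle, and Cish spreads most among injured muscles, from 5.66 to 60.2 TPM.

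Most genes of the neuromuscular junction and of denervated fibers were higher on the TPM scale. Of 22 tested members, 16 were higher and none lower (25.2% of all tested genes were higher), with a median log2 fold change of 1.47 against 0.57 over all tested genes, and 10 were higher and 1 lower after size factors (11.8% of all genes were higher; median 0.96 against -0.0066). The adult acetylcholine receptor is built from the products of Chrna1, Chrnb1, Chrnd and Chrne, and the fetal receptor carries the Chrng product in place of that of Chrne. Chrng stood at 0, 0.09, 0.3 and 0.32 TPM in the contralateral muscles and at 22.2 to 53.8 TPM (median 31) in the injured muscles, and rose by 4.90 (SE 0.23, adjusted p = 2.21e-09). The fetal subunit was thus near 0 in every contralateral muscle and well above it in every injured one.

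Chrnd stood at 2.16, 3.01, 3.1 and 3.13 TPM contralaterally and at 87.9 to 234 TPM (median 125.3) in injured muscle, and rose by 5.1 (SE 0.22). Chrna1 stood at 4.34, 5.04, 5.17 and 6.51 TPM contralaterally and at 107.2 to 299.5 TPM (median 152) in injured muscle, and rose by 4.69 (SE 0.23). No contralateral muscle came near an injured one for these subunits. With a pseudocount of 0.1 TPM, which compresses low genes less, the rises were 7.16 for Chrng, 5.49 for Chrnd and 4.91 for Chrna1. Chrne, the adult subunit, rose less, by 2.41 (SE 0.16), from 7.21 ± 1.4 TPM to 43.4 ± 10.9 TPM. Chrnb1 rose by 1.12 (SE 0.11) from 23.6 ± 0.83 TPM to 53.1 ± 9.39 TPM, a call that was lost after size factors (0.46) and with the rat as a fixed block (0.96). In TPM, which is a level per transcript length, Chrne still exceeded Chrng on average in injured muscle.

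Other members of this list were higher too. Ncam1, the cell adhesion molecule that spreads over denervated fibers, rose by 3.56 (SE 0.20), Runx1, a transcription factor of denervated muscle, by 3.50 and Musk, the receptor kinase that gathers acetylcholine receptors, by 2.68. Gadd45a, a stress gene that is strongly raised by nerve loss, rose by 3.10 from 24.3 ± 1.51 TPM to 219 ± 42.2 TPM. The ubiquitin ligases best known from fiber wasting were not called. Fbxo32 stood at 76.5 ± 13 TPM in injured and 79.7 ± 35 TPM in contralateral muscle (log2 difference 0.011, SE 0.18, adjusted p = 0.954), and Trim63 at 193 ± 22.7 TPM against 156 ± 26.7 TPM (0.31, not called). Of 20 tested genes of ubiquitin ligases and FoxO factors, 3 were higher and none lower, a smaller share than the 25.2% of all genes, with a median of 0.38 under the 0.57 of all genes, and after size factors none were higher and 2 lower (5.23% of all genes were lower).

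The subunit genes that rose most are shown by the 250 bases before their start in RefSeq (assembly GRCr8, not the build that the TPM were made on), because E-boxes, the letters CANNTG that bind myogenic factors such as the product of Myog, were described in receptor subunit promoters. Capitals mark CAGCTG, and CACCTG or its reverse complement CAGGTG, on either strand. The Chrna1 window is chr3:78877354-78877603 (minus strand), that of Chrnd chr9:95310066-95310315 (plus strand) and that of Chrng chr9:95325734-95325983 (plus strand).
Chrna1: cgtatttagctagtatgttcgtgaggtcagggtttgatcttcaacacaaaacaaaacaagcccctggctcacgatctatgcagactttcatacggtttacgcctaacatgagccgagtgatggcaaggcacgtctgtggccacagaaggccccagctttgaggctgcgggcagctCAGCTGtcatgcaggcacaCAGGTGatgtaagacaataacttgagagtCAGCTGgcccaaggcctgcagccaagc
Chrnd: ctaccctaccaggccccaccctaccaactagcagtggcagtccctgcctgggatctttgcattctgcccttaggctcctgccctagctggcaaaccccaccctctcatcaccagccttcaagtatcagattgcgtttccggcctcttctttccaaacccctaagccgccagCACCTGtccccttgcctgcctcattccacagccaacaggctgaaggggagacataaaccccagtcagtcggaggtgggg
Chrng: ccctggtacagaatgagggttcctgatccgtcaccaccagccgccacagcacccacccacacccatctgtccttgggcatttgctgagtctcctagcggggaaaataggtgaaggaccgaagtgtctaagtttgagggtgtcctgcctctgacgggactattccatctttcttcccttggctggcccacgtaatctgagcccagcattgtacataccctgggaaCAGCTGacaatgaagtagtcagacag
Chrna1 held CAGCTG at 2 places here, with first bases 75 and 27 bases before the start, and CAGGTG 56 bases before it. Chrng held CAGCTG once, 26 bases before the start, and Chrnd held CACCTG, 79 bases before it. Among windows of this length before 33469 starts, 12% held CAGCTG, 15.9% held CACCTG or CAGGTG and 65.5% held any CANNTG. Of the 12 called members of the group with a window 6 held CAGCTG (50%), beside 8 of all 17 tested members with one (47.1%). The windows of Chrne and Chrnb1, the subunits that rose less, also held it, and that of Chrnd did not. Such letters are a description of the window and show no binding.

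The myogenic regulators were split. Of 17 tested genes 7 were higher and none lower (median 0.72), and after size factors 4 were higher and 2 lower (median 0.060). Myog, the factor of fiber differentiation, rose by 3.33 (SE 0.18), from 10.9, 11.7, 13.9 and 14.8 TPM in the contralateral muscles to 96.6 to 193 TPM (median 132.3) in the injured ones. Tmem8c, which encodes the fusion protein myomaker, rose by 4.51 (SE 0.18) from 0.79 ± 0.34 TPM to 40.6 ± 11 TPM. Both are late genes of differentiation and fusion, and their sides did not overlap, as was so for 73.7% of all tested genes.

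Earlier markers differed less. Myf5, an early determination factor, rose by 1.89 and Pax7, the marker of satellite cells, by 1.08 (from 1.13 ± 0.397 TPM to 3.47 ± 0.564 TPM), the latter a call that was lost after size factors (0.65). Myod1 was not called, at 52.6 ± 12.1 TPM in injured and 33.6 ± 4.57 TPM in contralateral muscle, with a difference of 0.61 that turned to -0.058 after size factors. Mstn, myostatin, which limits muscle growth, stood at 8.81 ± 1.52 TPM against 15.3 ± 2.62 TPM, a difference of -0.73 that was not called on the TPM scale and was called lower after size factors (-1.37).

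Most developmental contractile genes were higher, whereas most adult ones were not called on the TPM scale. Of 12 tested developmental sarcomere genes, 8 were higher and none lower (median 2.30), and 7 were higher after size factors (median 1.63). The list includes Ankrd1, which is also counted among the stress genes and had the largest rise of the list. After Ankrd1 and Myh3 came Tnnt2, cardiac and embryonic troponin T, which rose by 5.06 (SE 0.25). Myh8, neonatal myosin heavy chain, followed with a rise of 4.51 (SE 0.26). Myl4, embryonic myosin light chain, rose by 3.55 from 31.8 ± 0.843 TPM to 401 ± 134.5 TPM, and Actc1, cardiac and fetal actin, by 2.72. Myosins and actins have long stretches in common, so part of a signal may come from a close relative.

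Of 32 tested adult sarcomere genes, 2 were higher and 1 lower (median -0.32), but 1 was higher and 15 lower after size factors (median -1.0). One of the higher calls, Tnnc1 (1.01), was lost without any of 6 single muscles (contralateral TS5.129 or TS5.131, or injured TS5.131, TS5.133, TS5.135 or TS5.137), at 0.83 to 0.98, and the 1 lower gene became 2 without injured TS5.131 or TS5.137. Myh4, the myosin of the fastest fibers, stood at 17152, 17325, 19088 and 20335 TPM contralaterally and at 8035 to 13643 TPM (median 9224) in injured muscle, a difference of -0.89 (SE 0.12) that was called after size factors only (-1.58). Myh1, of fast fibers of the next class, stood at 4667 ± 775 TPM against 2982 ± 362 TPM and was called on neither scale (0.63, and -0.049 after size factors). Tnni1, slow troponin I, rose by 2.30 (SE 0.25) from 144.2 ± 61.8 TPM to 692 ± 187 TPM. Acta1, skeletal actin, went from 49767 ± 1307 TPM to 39905 ± 3843 TPM, a difference of -0.32 on the TPM scale and a lower call after size factors (-1.01).

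**Figure D2:**
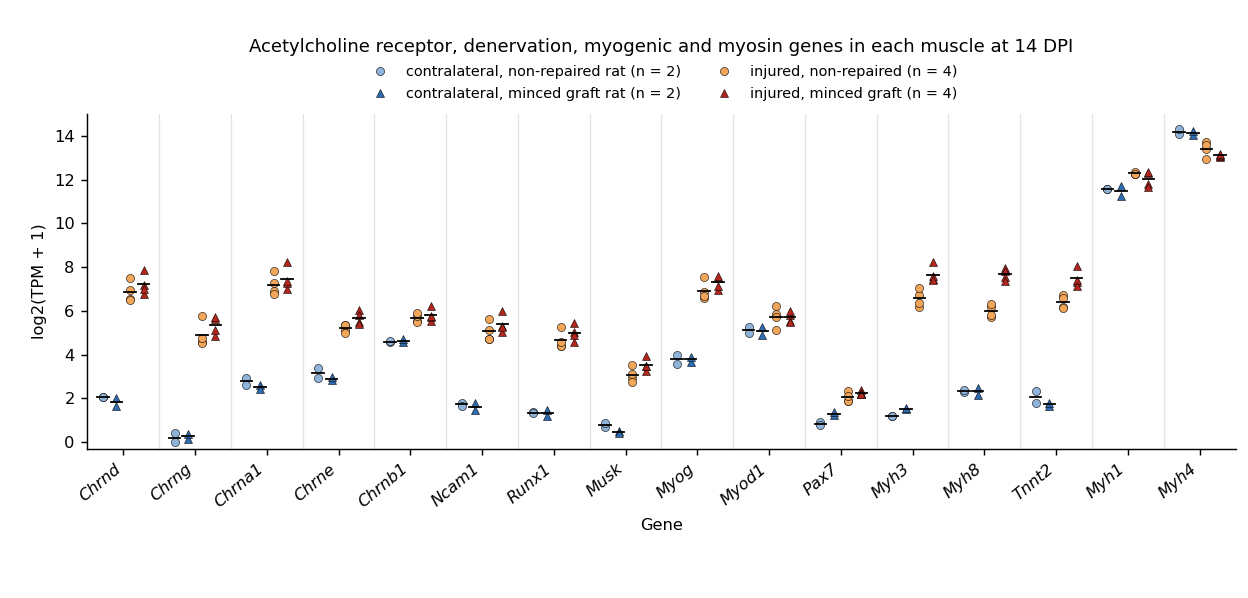
Levels of 16 acetylcholine receptor, denervation, myogenic and myosin genes in each of the 12 muscles at 14 DPI, on the log2(TPM + 1) scale (vertical axis). Symbols, colors and bars are as for the genes with the largest change: circles non-repaired, triangles graft, blue contralateral (n = 2 per arm), orange and red injured (n = 4 per arm), bars means; Chrng lies at 0 to 0.32 TPM contralaterally and at 22.2 to 53.8 TPM in injured muscle, Myod1 and Myh1 overlap between the sides, and Myh4 lies at 8035 to 13643 TPM in injured muscle, under every contralateral value.

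Few calcium handling genes were called on the TPM scale. Casq2, calsequestrin of slow and cardiac fibers, rose by 3.13 (SE 0.16) from 13.7 ± 1.58 TPM to 134.6 ± 48.6 TPM. Atp2a1, the fast calcium pump that Sln inhibits, stood at 8913 ± 831 TPM against 14971 ± 689.9 TPM, a difference of -0.75 that was called lower after size factors only (-1.44). Atp2a2, the slow and cardiac pump, was called at 1.04 on the TPM scale, a call that was lost after size factors (0.37), with the rat as a fixed block (0.98) and without any of 4 single muscles (as low as 0.88). Of 20 tested genes of this kind, 3 were higher and none lower (median -0.15), and 2 were higher and 5 lower after size factors. Over all tested genes 25.2% were higher and 0.371% lower on the TPM scale, and 11.8% and 5.23% after size factors.

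Energy metabolism genes had negative medians on both scales, with most calls after size factors alone. Over all tested genes 0.371% were lower on the TPM scale (median 0.57) and 5.23% after size factors (median -0.0066). None of 44 subunits of oxidative phosphorylation was called on the TPM scale (median -0.40), and 31 were lower after size factors (median -1.09). Among 28 glycolysis and glycogen genes 4 were lower on the TPM scale (median -0.62) and 22 after size factors (median -1.30), with none higher on either. The 4 became 2, without Pfkfb3 and Gpd1, when contralateral TS5.131, contralateral TS5.135 or injured TS5.143 was left out, and both also lost their call with the rat as a fixed block. Fbp2, the muscle fructose-bisphosphatase, had a log2 fold change of -1.35 (SE 0.22) and fell from 119.04 ± 11.9 TPM to 48.4 ± 16.4 TPM. Pygm, muscle glycogen phosphorylase, stood at 4125 ± 588 TPM against 7058 ± 320.2 TPM, a difference of -0.79 that became a call of -1.47 after size factors. Of 30 fatty acid oxidation genes 1 was higher on the TPM scale and 6 were lower after size factors.

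The 12 genes with the largest fall and no overlap were led by Cish, a feedback inhibitor of cytokine signals through STAT5, at 32.5 ± 22.5 TPM in injured and 94.96 ± 17.7 TPM in contralateral muscle (-1.88, SE 0.54, adjusted p = 0.00518). The injured values of Cish ran from 5.66 to 60.2 TPM, the widest spread of these genes. In the fit with the rat as a fixed block over the 4 rats that gave both muscles, the difference of Cish was -0.88 and its call was lost. Aqp4, the water channel of fast fibers, stood at 39.4, 40.2, 45.7 and 59.4 TPM contralaterally and at 6.88 to 23.8 TPM (median 13.1) in injured muscle, a log2 fold change of -1.78 (SE 0.28). Lmod1, an actin nucleator best known from smooth muscle, had a log2 fold change of -1.47, Tuba8, an alpha tubulin of muscle, -1.40 and Ppp1r3c, a subunit that brings a phosphatase to glycogen, -1.26. The other genes of this group, LOC100910189, Lingo4, Dusp26, Fbp2, Cib2, Acsm5 and Asb11, had log2 fold changes from -1.58 to -1.29, and all 12 kept their call after size factors.

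Most fibrillar collagen genes were higher. Of 9 tested fibrillar collagen genes 8 were higher on both scales, with a median of 3.35 on the TPM scale and 3.00 after size factors. Over all tested genes 25.2% were higher, and 11.8% after size factors. Col1a1, of type I collagen, stood at 58.1, 75, 103.95 and 132.7 TPM contralaterally and at 1256 to 3026 TPM (median 1457) in injured muscle, a rise of 4.20 (SE 0.23). Col3a1, of the type III collagen of young scar, rose by 3.93 from 139.8 ± 34.1 TPM to 2129.7 ± 404 TPM. Both had their highest value in the injured graft muscle of rat TS5.135, and without it the rises were 4.07 and 3.85.

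Most genes that build and order collagen were higher too. All 18 tested matricellular genes were higher (median 3.15), and 15 after size factors. Of 10 small leucine-rich proteoglycans, which space collagen fibrils, 8 were higher (median 2.11) and 7 after size factors, with Lum, lumican, up by 4.57 (SE 0.19) and Bgn, biglycan, by 4.42. Of 17 elastic fiber and microfibril genes 16 were higher (median 2.40) and 13 after size factors, led by Mfap4, a microfibril protein, which rose by 4.69. Of 28 collagen processing enzymes 24 were higher (median 2.08) and 18 after size factors, among them the collagen crosslinking enzymes Loxl1 (4.51) and Lox (3.69). No member of these groups was lower on either scale.

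Most genes of matrix cutting and its inhibition were higher on the TPM scale. Of 27 matrix proteases and inhibitors 18 were higher (median 1.58), and after size factors 14 were higher and 1 lower. Mmp14, a membrane-bound collagenase, rose by 4.33 (SE 0.19) from 7.88 ± 1.98 TPM to 182 ± 60.5 TPM, and Mmp2, the gelatinase that it activates, by 3.60. Timp1, an inhibitor of these enzymes, rose by 3.57. Tnmd, tenomodulin of tendon cells, stood at 1.85 to 4.46 TPM contralaterally and at 46.7 to 195 TPM (median 83.2) in injured muscle, a rise of 4.46 (SE 0.30), and 12 of 18 tested tendon and cartilage genes were higher (median 1.55), 9 of them after size factors. Of 5 cartilage markers, Col2a1, Matn1, Hapln1 and Col9a1 stayed under 1 TPM in every muscle. The remaining marker, Acan, was called higher on both scales. The markers summed to 1.4 to 8.09 TPM in injured and 0.05 to 0.1 TPM in contralateral muscle.

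Growth signals to matrix and muscle were higher in part. Of 45 TGF-beta, activin and BMP genes 22 were higher (median 0.93, beside 25.2% of all genes higher), and after size factors 8 were higher and 1 lower, a share near the 11.8% of all genes. Tgfb1, the growth factor that drives collagen synthesis, rose by 2.52 (SE 0.10) from 4.3 ± 0.627 TPM to 29.6 ± 4.14 TPM. Of 14 genes of the insulin-like growth factor axis 11 were higher (median 1.71) and 7 after size factors. Igf1 rose by 2.94 from 4.82 ± 1.35 TPM to 44 ± 12.2 TPM, and Igf2, the fetal growth factor, by 2.86 from 47.2 ± 8.95 TPM to 348 ± 47.3 TPM.

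Most fibroblast genes and part of the nerve sheath genes were higher in injured muscle. Of 32 fibroadipogenic and fibroblast genes 22 were higher (median 1.67) and 17 after size factors. Lrrc15, a membrane protein of myofibroblasts, rose by 4.28 (SE 0.23) from 0.05 ± 0.0812 TPM to 20.8 ± 9.34 TPM, and Thy1, a fibroblast surface marker, by 3.56. Of 13 Schwann cell and nerve repair genes 6 were higher (median 0.99) and 5 after size factors. Of 5 tested Schwann cell markers 1 was higher, Sox10 was under 1 TPM in every muscle, and the summed level of the markers overlapped between sides (17.4 to 105.6 TPM injured, 12.1 to 21.4 contralateral). The summed level of the list was highest in injured TS5.137, at 210.7 TPM against 77.8 to 130.8 in the other injured muscles. S100b, a Schwann cell protein, rose by 1.68 from 3.02 ± 1.12 TPM to 11.7 ± 2.76 TPM, and Erbb3, the neuregulin receptor of Schwann cells, by 1.58. Of 36 growth factor and paracrine signal genes 16 were higher (median 0.92) and 9 after size factors, led by the Wnt-binding proteins Sfrp4 (4.25) and Sfrp2 (3.20), with Dkk3 (3.38) and the growth factor midkine, Mdk (3.22), between them.

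Most macrophage genes and genes shared by leukocytes were higher in injured muscle at 14 DPI. Of 32 macrophage and monocyte genes 29 were higher (median 1.93), 26 of them also after size factors, and of 29 genes shared by leukocytes 26 and 22. Over all tested genes 25.2% were higher, and 11.8% after size factors. Lyz2, lysozyme of macrophages and neutrophils, stood at 32.4, 35.8, 39.8 and 40.7 TPM contralaterally and at 277 to 577 TPM (median 347) in injured muscle, a rise of 3.21 (SE 0.14). Cd68, a lysosomal macrophage marker, rose by 3.09 and Mrc1, the mannose receptor of resident macrophages, by 2.14. None of the 4 contralateral values of Lyz2, Cd68 or Mrc1 reached the lowest injured value, as was so for 73.7% of all tested genes.

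Genes of lipid-laden macrophages and of lysosomes were mostly higher. Of 30 tested, 23 were higher (median 1.94) and 17 after size factors. Gpnmb, a membrane protein of phagocytes that handle lipid, rose by 4.54 (SE 0.19) from 4.73 ± 1.02 TPM to 137.8 ± 47.6 TPM. Apoe, the lipid carrier apolipoprotein E, rose by 4.5 (SE 0.13) from 89.3 ± 9.61 TPM to 2069.6 ± 458 TPM. Trem2, a lipid-sensing receptor of macrophages, rose by 3.16, and Ctsk, the collagen-degrading cathepsin K, by 3.92. Spp1, osteopontin, stood at 0.81 to 2.02 TPM contralaterally and at 5.95 to 31.2 TPM (median 18.9) in injured muscle, a rise of 2.77.

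Part of the signals that draw and activate leukocytes were higher. Of 31 chemokines and receptors 20 were higher (median 1.46) and 16 after size factors, led by Ccl6 (3.22), a macrophage chemokine, and Pf4 (2.62). Over all tested genes 25.2% were higher, and 11.8% after size factors. Of 33 cytokines and receptors 20 were higher (median 1.28), and after size factors 10 were higher and 1 lower. Il1rl1, the receptor of interleukin 33, rose by 2.02, and Tnfrsf12a, a receptor of injured muscle for the cytokine TWEAK, by 1.94. Of 28 complement and related genes 19 were higher (median 1.83), and after size factors 17 were higher and 2 lower. C2 (2.95) and C1s (2.86), both proteases of the classical pathway, were among the higher ones. Mast cell genes were higher in 6 of 10 cases (median 1.17) and 3 after size factors, with Cma1, a mast cell chymase, at 23.2 ± 4.42 TPM against 5.25 ± 1.12 TPM and Cpa3, a mast cell carboxypeptidase, at 13.7 to 24.4 TPM against 3.17 to 5.17 TPM.

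Most antigen presentation genes and part of the lymphocyte genes were higher. Of 17 class II genes 13 were higher (median 1.60) and 9 after size factors. Cd74, the invariant chain, went from 65.1 ± 8.12 TPM to 316 ± 53.2 TPM, a rise of 2.25. Of 46 interferon-response genes 35 were higher (median 1.47), 23 after size factors and 30 without the injured graft muscle of rat TS5.135. Isg15, an interferon-induced ubiquitin-like modifier, ran from 6.38 to 58.1 TPM in injured muscle (log2 fold change 2.35, SE 0.53), whereas Lyz2 ran from 277 to 577 TPM.

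Of 26 T cell and cytotoxic genes 14 were higher (median 1.13) and 7 after size factors, beside 25.2% and 11.8% of all tested genes. Cd28, a costimulatory receptor of T cells, rose by 3.73 (SE 0.14) from 2.09 ± 0.39 TPM to 40.6 ± 8.54 TPM, while Cd3g, a chain of the T cell receptor complex, rose by 1.67 to a mean of 3.15 TPM. The level of Cd28 was thus above that of Cd3g in every injured muscle. B cell markers were at or near 0: Cd79b and Ms4a1 stayed under 1 TPM in every muscle, and none of the 3 tested B cell and plasma cell genes was called. Of 8 tested neutrophil genes 5 were higher (3 without contralateral TS5.129) and 2 after size factors, and the neutrophil markers Cxcr2 and Mpo stayed under 1 TPM throughout.

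Cell division genes depended on the scale. Of 57 tested 28 were higher and 1 lower (median 0.99, beside 25.2% of all genes higher), and after size factors 8 were higher and 1 lower, a share near the 11.8% of all genes. The list also holds inhibitors of division, and among these Cdkn1a and Cdkn2a were higher on both scales (5.46 and 1.43 after size factors). The lower call, Tpx2, was lost without contralateral TS5.135. Cdk1, the kinase that starts mitosis, rose by 1.80, with 0.58 to 2.02 TPM contralaterally and 5.04 to 7.1 TPM in injured muscle. Mki67, a marker of dividing cells, reached 2.26 ± 0.334 TPM against 0.425 ± 0.129 TPM, a rise of 1.19 whose call was lost after size factors (0.89). Cdkn2a, an inhibitor of the cycle in senescent cells, was listed at 0 in all 4 contralateral muscles and at 1.72 to 2.72 TPM in the injured ones. Endothelial calls rested on the scale, since 13 of 34 were higher on the TPM scale (median 0.80) and 1 after size factors (median 0.24).

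**Figure D3:**
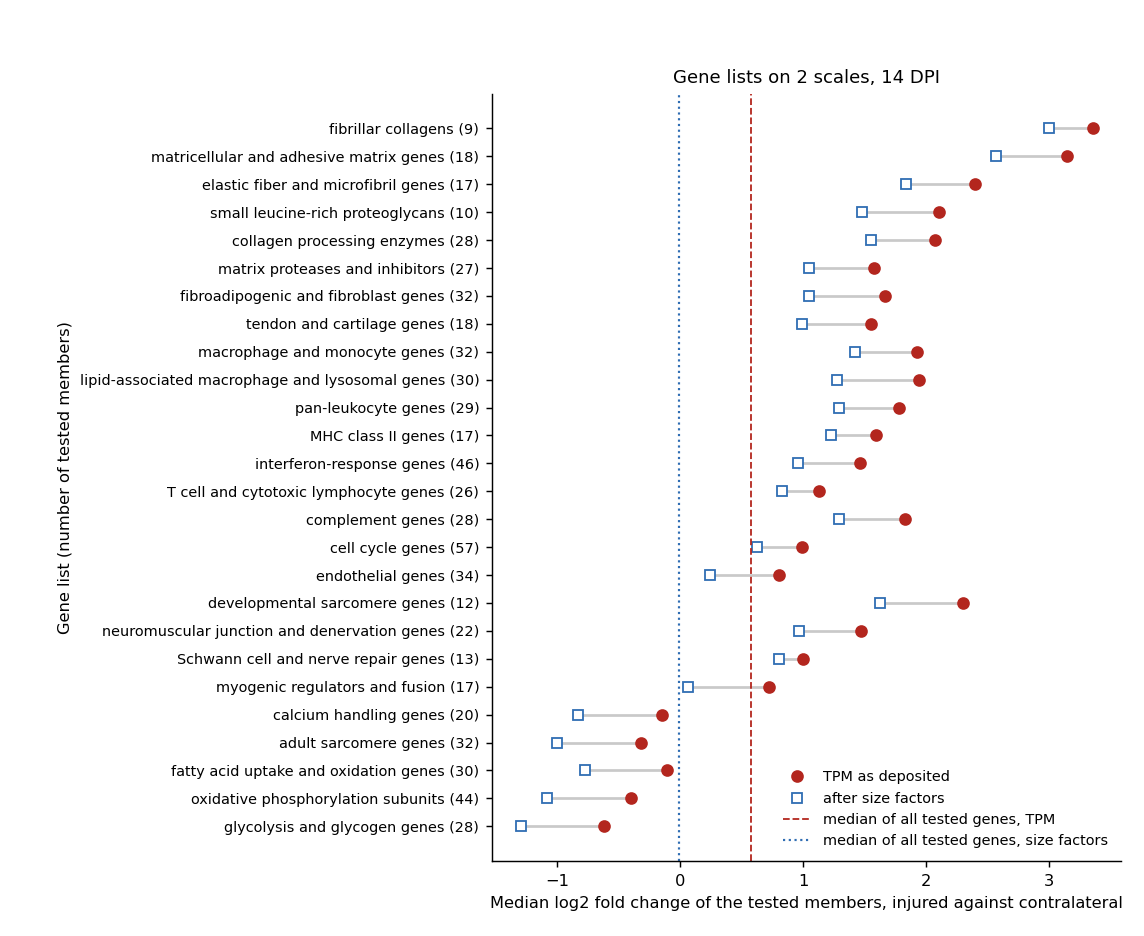
Median log2 fold change, injured against contralateral at 14 DPI (horizontal axis), of the tested members of 26 gene lists (vertical axis, number of members in brackets) on the TPM scale (filled circles) and after size factors (open squares). Dashed and dotted lines mark the medians of all tested genes on the 2 scales, 0.57 and -0.0066; the fibrillar collagens lie highest, at 3.35 and 3.00, and glycolysis and glycogen genes lowest, at -0.62 and -1.30.

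Whether the graft changed the effect of injury was asked by fitting the injury effect in each arm against that arm's own contralateral muscles. No gene was called for a difference between the arms by limma, with 330 of 10507 at an unadjusted p under 0.05. In the non-repaired arm alone 2409 genes were called and in the graft arm 2972, and 2283 were called in both in the same direction, which is 94.77% of the former and 76.82% of the latter. These counts do not test a difference, and each arm rests on 2 contralateral muscles. The median of the fibrillar collagens was 3.15 in the non-repaired and 3.60 in the graft arm, that of the macrophage genes 1.90 and 1.99, and that of the developmental sarcomere genes 2.08 and 2.53, beside 0.53 and 0.61 over all tested genes. The graft arm holds injured TS5.135, in which the fibrillar collagens had a median of 4.44, against 3.33 to 3.49 in the other graft muscles and 2.94 to 3.47 in the non-repaired ones, and the non-repaired arm holds TS5.129 and TS5.133, which were lowest here (2.94 and 3.05). The part of single muscles in the arm medians and counts was not tested.

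The single genes nearest to a difference were Myh8 and Pmaip1, which are named after their values were seen. Myh8 stood at 51.5, 55.7, 70.3 and 79.2 TPM in the non-repaired and at 162, 188, 224 and 245 TPM in the graft muscles, with log2 injury effects of 3.68 and 5.35 and a difference of 1.67 (SE 0.26, adjusted p = 0.188). The 4 graft muscles all lay above the 4 non-repaired ones for this neonatal myosin. Pmaip1, a mediator of cell death downstream of p53, stood at 5.48, 7.69, 7.77 and 8.83 TPM in the non-repaired and at 10, 10.3, 10.6 and 18.4 TPM in the graft muscles on the injured side (adjusted p of the difference in effect = 0.188). On the contralateral side it was listed at 0 in both graft rats and at 1.48 and 3.04 TPM in the non-repaired rats, so the values of the arms did not overlap on either side. Pmaip1 was called after size factors, and Pmaip1, Clec4d and Mir339 were called with a pseudocount of 0.1 TPM.

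A second cohort at the same day, labelled as running rats, gave a separate set of 8 injured and 4 contralateral muscles. Fitted alone, it had 2772 genes higher (26.4%) and 77 lower (0.733%) in injured muscle, and after size factors 1316 higher and 705 lower. Of the 2692 calls in non-running rats, 2499 (92.83%, and 87.71% of the running calls) were called in the same direction in the running rats and 0 in the opposite one, and all 2692 had the same sign. Pearson's r between the log2 fold changes of the cohorts was 0.978 across the 10507 genes, which are not independent replicates. For single genes, Sln had effects of 7.13 and 6.97, Myog 3.33 and 3.71, Chrng 4.90 and 5.1, Col1a1 4.20 and 4.06, and Apoe 4.5 and 4.73.

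The same lists were counted in the running rats, in which 26.4% of all genes were higher. All 18 matricellular genes, 8 of 9 fibrillar collagens, 30 of 32 macrophage genes, 15 of 22 junction and denervation genes and 8 of 12 developmental sarcomere genes were higher, with none lower. After size factors these counts were 16, 8, 29, 11 and 7, with 1 lower member among the junction genes and 1 among the developmental sarcomere genes. Spp1 had a log2 injury effect of 4.0 in running and 2.77 in non-running rats, a difference of 1.28 (SE 0.64, unadjusted p = 0.0595 by limma). No gene was called by limma for a difference of the injury effect between the cohorts, with 231 of 10623 at an unadjusted p under 0.05.

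**Figure D4:**
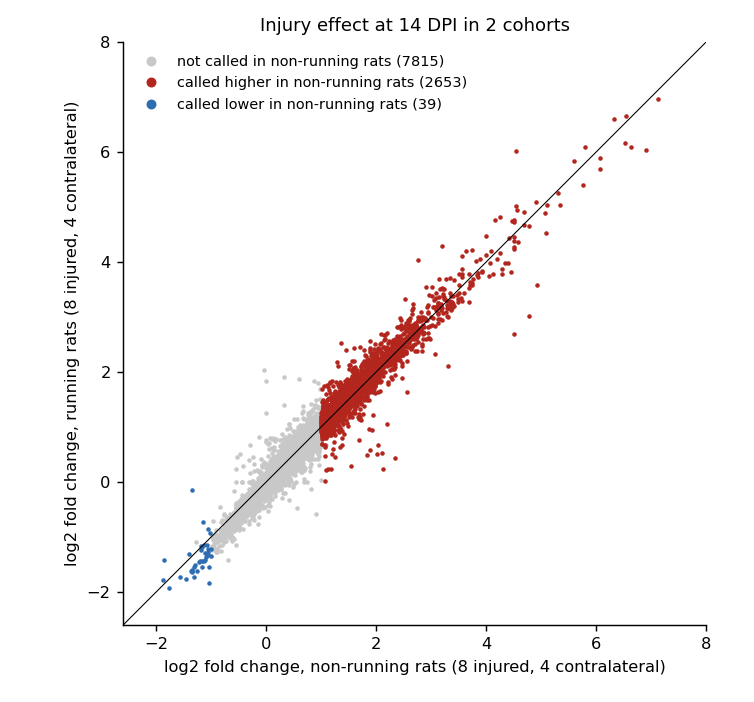
Log2 fold change of each of the 10507 tested genes, injured against contralateral at 14 DPI, in non-running rats (horizontal axis) and in running rats (vertical axis), with 8 injured and 4 contralateral muscles in each cohort. Red genes were called higher (2653) and blue genes lower (39) in non-running rats, grey genes were not called, and the line marks equal effects; the red and blue points keep their sign in the running rats.

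The place of 14 DPI in the course of repair was asked by setting its injury effect against those at 7 and 28 DPI in non-running rats, in 1 model of 50 muscles. Both differences share the day 14 muscles. From 7 to 14 DPI the effect was larger (more positive) for 100 genes (0.906%) and smaller for 898 (8.13%) of 11041, and after size factors for 280 and 298. The median of all genes shifted by -0.34 on the TPM scale and by -0.024 after size factors. From 14 to 28 DPI the effect was larger for 4 genes (0.0362%) and smaller for 20 (0.181%), and after size factors for 9 and 25. With the rat as a random block to respect the pairing of muscles within rats, the last counts were 5 and 36.

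Many immune and cell division genes lost part of their rise from 7 to 14 DPI. The effect became smaller for 26 of 32 macrophage genes (16 after size factors), 23 of 29 leukocyte genes (13), 34 of 57 cell cycle genes (26) and 16 of 27 matrix proteases and inhibitors (10), with none larger on either scale. Spp1 had a log2 injury effect of 7.90 at 7 DPI and 2.77 at 14 DPI (difference -5.13, SE 0.68, adjusted p = 2.69e-07). Hmox1, heme oxygenase of macrophages that clear blood, went from 5.74 to 2.66 and Il1rl1, the receptor of interleukin 33, from 5.20 to 2.02. Mmp12, macrophage elastase, went from 5.28 to 2.53, and all 4 differences were called on both scales.

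Part of the adult fiber genes had a more positive effect at 14 than at 7 DPI, and the negative medians of their lists became smaller in size. For 8 of 32 adult sarcomere genes the effect became more positive (19 after size factors), their median going from -1.11 to -0.32. So it did for 10 of 28 glycolysis genes (18), whose median went from -1.41 to -0.62. Fibrillar collagen effects became smaller for 7 of 9 genes on the TPM scale but for 1 after size factors. Chrng had an effect of 6.89 at 7 DPI and 4.90 at 14 DPI (difference -1.99, adjusted p = 1.78e-05). Sln was among the genes whose effect became more positive, from 5.95 to 7.13 (adjusted p = 0.00238 by limma). Srebf1, a regulator of lipid synthesis, was another and went from -1.82 to 0.62. At 14 DPI Srebf1 was not called between sides, and its value turned to -0.059 after size factors.

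After 14 DPI the matrix, progenitor and neonatal genes Tnc, Tnn, Dlk1 and Myh8 were among the 24 called. Tnc went from 5.34 at 14 DPI to 2.83 at 28 DPI (difference -2.51, SE 0.47, adjusted p = 0.00783), and Tnn, tenascin N, from 4.39 to 1.82. Dlk1 went from 5.8 to 3.36 and Myh8 from 4.51 to 2.61. Each of these differences was called on both scales. For Sln, Myog and Chrna1 no difference was called, and their effects at 28 DPI were 6.98, 4.07 and 4.71.

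**Figure D5:**
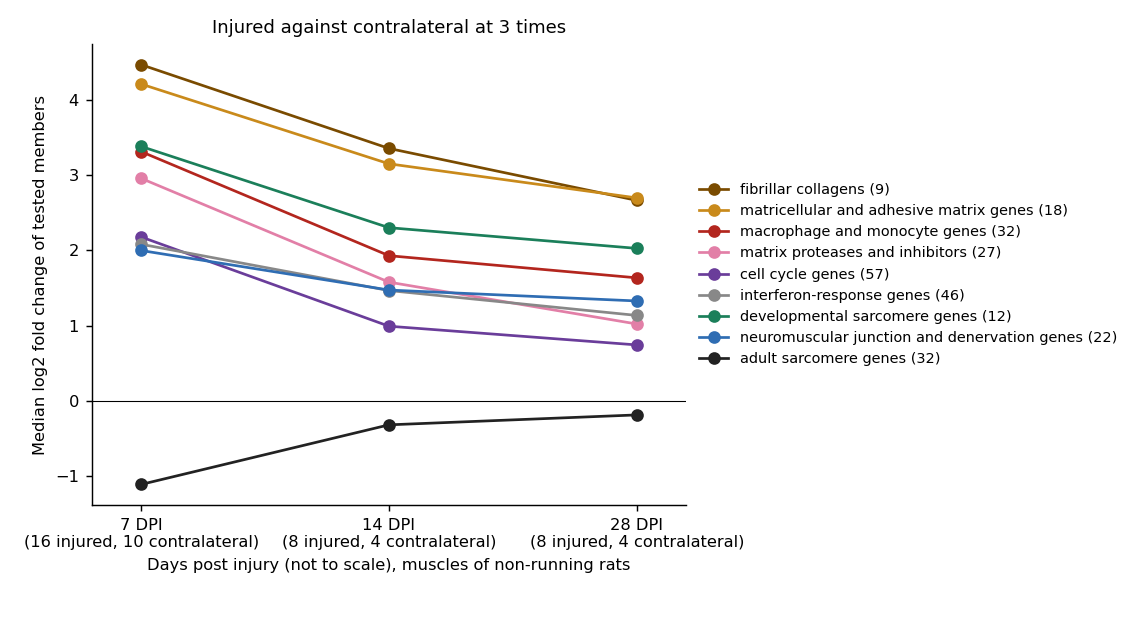
Median log2 fold change, injured against contralateral (vertical axis, TPM scale), of the tested members of 9 gene lists at 7, 14 and 28 DPI (horizontal axis, not to scale) in non-running rats, with the number of members in brackets. Each point is the median over members of the effect fitted from 16 injured and 10 contralateral muscles at 7 DPI and 8 and 4 at the later days; macrophage genes go from 3.31 to 1.93 and 1.64, and adult sarcomere genes from -1.11 to -0.32 and -0.18.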

How the data were processed

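TA muscles of rats were profiled by RNA sequencing, and the authors deposited 1 table of TPM per gene symbol and library, made by kallisto on rat build 6.0 with GenBank annotation (DESeq is also named in the submitters' processing notes, without versions). TPM carry no read totals, which leaves the libraries' depth unknown. The table ends alphabetically at Tubb3, and later symbols were not analysed here, nor was 1 incomplete entry. From log2(TPM + 1), genes with a mean above 1 TPM in at least 1 group were fitted in limma 3.58.1 (R 4.3.3, intensity trend, injury and repair as terms), and a call needed a Benjamini-Hochberg adjusted p under 0.05 and a log2 fold change over 1 in size. The study's own methods test counts, which TPM do not allow. Size factors are medians of ratios to the gene-wise geometric mean. They and the combined block fit were chosen after seeing the data. Arms, running rats and days were compared by interaction terms. Muscles of the same rat pair by animal, and their deviations from group means correlated at 0.14 to 0.19 in the 4 rats, so fits with the rat as a block were added. Named genes were the 12 highest and 12 lowest calls without overlap, up to 4 calls at each end of each of 44 lists, the leading day differences and list members of interest, and other genes are said to be chosen after their values were seen or are named in the text for their role. The members and lists were chosen with earlier results of these data known. The fits were also run on simulated data with as many raised as lowered genes and no pairing of muscles, unlike the data here.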

Additional observations from a re-analysis of the deposited data

Results flagged for a closer look

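Among 332 sets of values, on log2(TPM + 1), of genes chosen for their change against the contralateral side or as leading list members, taken on each side, 28 (8.43%) had a muscle whose gap to the next exceeded Dixon's 95% limit as a share of the range of its group, where chance gives about 1 in 20. In 23 of the 28 it was the injured graft muscle of rat TS5.135 at the top. The gap shares there were for the matrix and fibroblast genes Cthrc1 0.574, Aspn 0.545, Col16a1 0.535, Smoc2 0.539, Thbs2 0.595, Mfap4 0.532, Lox 0.619, Ogn 0.673, P4ha3 0.568, Fstl1 0.535, Bmp1 0.593, Thy1 0.627, Kera 0.557 and C1qtnf3 0.532. Those for the other genes were Igf1 0.533, Cald1 0.579, Laptm5 0.601, Lyz2 0.61, Apoe 0.729, Ifitm1 0.626, Cd4 0.545, Cdkn2a 0.562 and Fasn 0.6. Without this muscle the log2 fold changes of Cthrc1, Lox and Apoe were 6.37, 3.60 and 4.41, against 6.53, 3.69 and 4.5 with it. In S100a8, a neutrophil and monocyte gene, the injured graft muscle of rat TS5.139 was the highest, with a gap share of 0.66 and 13.7 TPM, and without it the call was lost (0.93), as it was without contralateral rat TS5.131 (0.58). Of the contralateral muscles, Clrn1 was highest in rat TS5.133 (gap share 1, the other 3 being listed at 0), Agtr1a highest in rat TS5.129 (0.831), Cpt1a lowest in rat TS5.131 (0.836) and Chrnd lowest in rat TS5.135 (0.89).

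The injury effect on the log2 scale differed between days, by the limma test of the difference itself, for these genes. The differences are signed, so a positive one is a more positive effect and not always one of larger size. From 7 to 14 DPI the effect became more positive by 2.43 in Srebf1 and 2.12 in Prkaa2, a catalytic subunit of the energy sensor AMPK. The change was 2.04 in Hist1h4m, 1.95 in Ky and 1.95 in Pinlyp. At 14 DPI the effects were 0.62 in Srebf1, 0.49 in Prkaa2, 1.08 in Hist1h4m, -0.34 in Ky and 0.56 in Pinlyp. From 7 to 14 DPI the effect changed by -5.13 in Spp1, -3.18 in Il1rl1, -3.08 in Hmox1, -2.75 in Mmp12 and -2.59 in Tnn. From 14 to 28 DPI it became more positive by 2.58 in Calml3, 1.87 in Anxa8, 1.2 in Prima1, an anchor of acetylcholinesterase, and 1.10 in Gsn. It changed by -2.84 in Mir770, -2.57 in Tnn, -2.51 in Tnc, -2.44 in Dlk1 and -1.90 in Myh8. All of these calls were kept after size factors, with a pseudocount of 0.1 TPM and with the rat as a random block.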

How the results depend on the processing

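The count of 2692 calls became 1791 after size factors (1242 higher, 549 lower), 1787 with size factors and the rat as a random block, and 9082 with the adjusted p alone and no limit of fold (8091 higher, 991 lower). It was 2531 to 2817 without 1 muscle, and 2636 to 3706 under the other alternatives. With the replicate block, which respects the pairing of muscles by rat, 2692 genes were called with the rat as a random block, 2689 of them the same genes, and 2636 with the rat as a fixed block in the 4 rats with both muscles. The random block changed no call of a named gene or list for injured against contralateral muscle at 14 DPI. For the day differences it gave 957 calls from 7 to 14 DPI, where Cthrc1, Cd74 and Mmp23 lost theirs, and from 14 to 28 DPI it added Cthrc1, Myl4 and P4ha3. For the difference between arms the count of 0 became 3 with a pseudocount of 0.1 TPM, 1 after size factors and 0 to 2 without 1 muscle (1 without contralateral rat TS5.135 or injured rat TS5.137 and 2 without contralateral rat TS5.131). From 7 to 14 DPI 998 calls became 1512 with a pseudocount of 0.1 TPM and 578 after size factors. From 14 to 28 DPI 24 calls became 47 with that pseudocount and 41 with the random block. None of the 187 called genes among the 198 named for the comparison of sides at 14 DPI changed sign. Of them 21 lost their call after size factors, 6 with the fixed block and 10 without 1 muscle or another. Of these, genes that were not called changed sign as follows. Myod1 had -0.058 after size factors and -0.047 with the block added, Myh1 -0.049 and -0.059, Trim63 -0.37 and -0.37, and Fbxo32 -0.66 and -0.67. Fbxo32 also had -0.10 with the fixed block, -0.026 with running rats pooled in and -0.12 to 0.24 without 1 muscle. Of the genes named only for the day differences, Hist1h4m (1.08 at 14 DPI) lost its call after size factors (0.61) and fell to as low as 0.78 without 1 muscle, Ky and Prima1 gained a call after size factors (-1.02 and -1.20), and 4 uncalled genes changed sign there, Srebf1 to -0.059, Prkaa2 to -0.18, Pinlyp to -0.061 and Gsn to -0.67 (Gsn also to -0.15 without 1 muscle). Of the 44 lists, 17 changed their count by more than 1.5 times after size factors and 4 with the pseudocount of 0.1 TPM. The cause of these shifts was not tested. TPM carry no read totals, so the depth behind each value is unknown, and genes near 1 TPM are the least certain.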

Other observations

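The table lists microRNA hairpin genes, whose TPM are not levels of mature microRNAs. Of those tested, 61 (45.86%, beside 25.2% of all tested genes) were called higher in injured muscle and 0 lower, and after size factors 44 (33.08%, beside 11.8%) and 2. But 59 of them were listed at 0 in all 4 contralateral muscles and entered the test through the injured side, 28 of the 61 calls were among these, and 20 of all those tested (15.04%) had no overlap between sides (73.7% of all tested genes had none), so these shares are a description. Within 1000 kb of Dlk1 on chromosome 6 (RefSeq, assembly GRCr8), a stretch with an imprinted domain and its large microRNA cluster, the table lists 54 hairpin genes. At 14 DPI in non-running rats, 26 of them were above 0 in some injured muscle (11 to 22 in each of the 8) and 0 in any of the 4 contralateral muscles. In the running rats of the same day it was 25 in injured muscle (7 to 20 in each of 8) and 6 in contralateral muscle (1 to 2 in each of 4). At 7 DPI these numbers were 31 (11 to 17 in each of 16) and 8 (0 to 4 in each of 10), and at 28 DPI 23 (3 to 16 in each of 8) and 4 (1 to 2 in each of 4).

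The 3 hairpin genes of this domain that were above 0 in all 8 injured muscles are shown by their mature sequences, chosen after their values were seen. Capitals mark the seed, bases 2 to 8.
rno-miR-770-5p: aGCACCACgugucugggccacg
rno-miR-410-3p: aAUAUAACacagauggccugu
rno-miR-377-3p: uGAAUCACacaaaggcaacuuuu
Mir770 stood at 15.39 to 54.88 TPM in the injured muscles (median 31.7), Mir410 at 4.94 to 19.04 (median 9.83) and Mir377 at 1.5 to 7.34 (median 4.33), and all were listed at 0 in the 4 contralateral muscles. The seeds differ among the 3.

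Most other imprinted genes examined were higher. Of 15 tested, Dlk1 among them, from a list made after values were seen, 12 were higher (9 after size factors, with Snrpn lower), beside 25.2% and 11.8% of all tested genes, the median log2 fold change was 1.90, and the sides did not overlap for any of the 15 (73.7% of all tested genes had none). H19, a long noncoding RNA of fetal muscle, stood at 4372, 5685, 5726 and 7287 TPM contralaterally and at 19012 to 22409 TPM (median 21228) in injured muscle, which is a rise of 1.90 (SE 0.095) from an already high level. Mest rose by 3.70, Cdkn1c, a cyclin-dependent kinase inhibitor, by 3.51, Plagl1, a zinc finger factor, by 3.13 and Peg3 by 2.65. In the running rats the rises were 1.89 for H19, 3.57 for Mest, 3.43 for Cdkn1c, 2.89 for Plagl1 and 2.71 for Peg3.

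Among stress genes 9 of 19 tested were higher (median 0.74), and after size factors 5 were higher and 2 lower. The metallothioneins, which bind zinc and copper, were among them: Mt1 went from 4.46 ± 1.03 TPM to 153 ± 50 TPM (4.77) and Mt2A from 6.86 ± 1.22 TPM to 96.1 ± 33.9 TPM (3.56). Of 31 genes of folding and export in the endoplasmic reticulum 15 were higher (median 0.99), and after size factors 7 were higher and 1 lower, led by Kdelr3 (2.82). Of 27 genes of sterol and fatty acid synthesis 5 were higher, and after size factors 2 were higher and 2 lower, no larger share than the 25.2% and 11.8% of all tested genes, and Scd at 6.33 stood far above the next, Fasn at 1.43. Of 17 circadian clock genes 1 was higher on the TPM scale and 1 lower after size factors. Of 9 other collagens 8 were higher (7 after size factors), of 12 basement membrane genes 8 (6) and of 10 kallikrein-kinin and renin-angiotensin genes 5 (2). Of 25 smooth muscle and myofibroblast genes 12 were higher and 1 lower (9 and 2 after size factors), and of 19 adipocyte genes 6 and 1 (5 and 1), beside 25.2% higher and 0.371% lower of all tested genes (11.8% and 5.23% after size factors). The lower adipocyte call was lost without contralateral TS5.131 or TS5.135 or without injured TS5.135, TS5.137 or TS5.143. The circadian call, Npas2, was lost without injured TS5.129, TS5.131 or TS5.137 and without contralateral TS5.133 (0.81) or TS5.135 (0.90). It was also lost with running rats pooled in (0.85). The 5 calls of the kallikrein-kinin and renin-angiotensin genes became 3 without contralateral TS5.135.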
